A study of Mus musculus with 5 samples.

Results

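The genes described here set the electrical excitability of the muscle fibre surface. Scn4a, Clcn1, Kcnj2 and Kcnj11 encode the pores of ion channels, Atp1b1 and Atp1b2 encode beta subunits of the sodium-potassium pump, and Fxyd1 encodes a small protein that regulates that pump. They were chosen by name, as a list of sarcolemmal channel and pump genes, and their symbols were matched to Ensembl identifiers of the mouse. All 7 members were found among the 35275 genes of the table, and all 7 averaged at least 1 FPKM, a read count scaled by gene length and by library total.

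The tissue was gastrocnemius, a calf muscle made mostly of fast fibres, and its messenger RNA was sequenced in 5 samples of 1 group, numbered 1 to 5 in the labels and called libraries here. The mice were female NSG animals of 12 weeks, labelled wild type. The NSG strain carries the scid allele of Prkdc together with a null Il2rg allele, and is deeply immunodeficient: T cells, B cells and natural killer cells do not mature in it. All had received tail-vein injections, 2 per week for 5 weeks and 10 in all, with about 10 µg of vesicles at a time. The vesicles came from the culture named MCF-10A/miR122 in the labels, MCF-10A being a human breast epithelial cell line that does not form tumours and miR-122 the main microRNA of hepatocytes. The muscle was collected 2 days after the final dose. No untreated group was analysed here, so levels and their spread are described and no effect of the vesicles is given. The labels do not say that each number is a separate animal, and the spread may be partly technical.

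An action potential in a muscle fibre starts when voltage-gated sodium channels open, and it spreads along the surface membrane and into the transverse tubules. Chloride channels and inward-rectifier potassium channels hold the membrane near its resting potential and return it there, and ATP-sensitive potassium channels open when the energy state of the fibre falls. The sodium-potassium pump restores the ion gradients that activity runs down. It is built from a catalytic alpha subunit and a glycosylated beta subunit, with a FXYD protein bound to the pair. Human variants in SCN4A, CLCN1 and KCNJ2 are known causes of myotonia and periodic paralysis.

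Library totals ranged from 16674504 to 25407988 reads, and the members had between 772 and 12194 reads in a library. Library 3 stood apart over all genes that averaged 1 FPKM or more, with Pearson's r across genes of 0.961 to 0.970 with the other libraries on the log2(FPKM + 1) scale (a correlation across genes, which are not independent replicates). It lay at 36.0 on the first principal component, against -14.6 to 2.20 for the others. The tissue label was checked on 9 fast fibre markers, of which Myh4 was at 3712 to 8657 FPKM and Atp2a1 at 7540 to 9234 FPKM; Tnnc2 was at 0.39 to 4.67 FPKM. Of 5 heart muscle markers, Nppa and Myl7 were listed at 0 in all 5 libraries, Nppb and Tnni3 stayed at or below 0.89 FPKM, and Myh6 was at 13.5 to 43.6 FPKM, highest in library 2.

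Promoter sequences are shown for Atp1b1 and Kcnj2, which had the largest relative spread of the members and were both highest in library 2, and for Clcn1, which like Scn4a and Atp1b2 was highest in library 1. RefSeq promoters (build GRCm38.p6), which run from 250 bases before the annotated start to 50 bases after it, were found for 5 of the 7 members, all but Kcnj11 and Atp1b2. The promoter of Atp1b1 is chr1:164458306-164458605 on the minus strand, that of Kcnj2 is chr11:111065914-111066213 on the plus strand and that of Clcn1 is chr6:42286435-42286734 on the plus strand. Capitals mark the letters CCAAT on either strand, and in Clcn1 the match to the MEF2 consensus, a binding motif of muscle transcription factors.
Atp1b1: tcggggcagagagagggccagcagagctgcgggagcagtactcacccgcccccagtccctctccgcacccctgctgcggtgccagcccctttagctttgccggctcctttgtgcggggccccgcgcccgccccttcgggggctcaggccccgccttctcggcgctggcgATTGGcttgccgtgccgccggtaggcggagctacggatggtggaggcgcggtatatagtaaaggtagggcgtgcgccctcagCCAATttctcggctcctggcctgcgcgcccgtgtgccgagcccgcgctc
Kcnj2: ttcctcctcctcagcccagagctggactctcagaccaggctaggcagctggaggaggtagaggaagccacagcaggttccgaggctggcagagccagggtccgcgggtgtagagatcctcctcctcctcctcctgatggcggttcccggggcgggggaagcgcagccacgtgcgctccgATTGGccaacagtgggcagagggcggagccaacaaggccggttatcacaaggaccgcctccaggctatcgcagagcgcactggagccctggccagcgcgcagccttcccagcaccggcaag
Clcn1: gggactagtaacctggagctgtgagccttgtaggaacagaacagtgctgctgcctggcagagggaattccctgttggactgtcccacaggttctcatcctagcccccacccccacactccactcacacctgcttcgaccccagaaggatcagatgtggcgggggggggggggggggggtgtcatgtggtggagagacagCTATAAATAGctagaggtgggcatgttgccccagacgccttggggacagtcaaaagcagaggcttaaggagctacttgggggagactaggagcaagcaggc

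Both strands were searched for 5 motifs. CCAAT occurred 2 times in the Atp1b1 promoter and 1 time in that of Kcnj2, and 37.4% of 32851 promoters of the same length held it. The GC box, GGGCGG, occurred 2 times in each of these promoters, and 35.7% of all promoters held it. Atp1b1 and Kcnj2 were also rich in G and C, at 71.0% and 66.7% of bases, against a median of 52.7% over all promoters. Scn4a, the member with the smallest relative spread, was at 63.0%, Clcn1 at 59.0% and Fxyd1 at 58.7%. The Clcn1 promoter held neither of these motifs. It held 1 match to the MEF2 consensus, which was present in 3.19% of promoters, and the letters TATAAA (13.6% of promoters) lie inside that match. The E-box CANNTG occurred 3 times in Clcn1, 2 times in Kcnj2 and was not found in the Atp1b1 window; 72.3% of promoters held it. The Fxyd1 and Scn4a windows held no E-box, CCAAT letters, GC box or MEF2 consensus. TATAAA was found 1 time in Fxyd1, on the opposite strand and at position 2, after the annotated start. These are letter matches and not measured binding.

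Scn4a, the pore of the skeletal muscle sodium channel that starts the fibre's action potential (ENSMUSG00000001027, chromosome 11, 106318592 to 106353288, GRCm38), had the smallest relative spread of the 7 members. It was at 80.6, 61.7, 63.0, 63.4 and 68.0 FPKM in libraries 1 to 5. Library 1 was above the others, and libraries 2, 3 and 4 lay within 2 FPKM of each other. The mean was 67.3 ± 7.80 FPKM (SD, n = 5), with a coefficient of variation of 11.6%. Counting error alone would give 1.04%, and a larger coefficient was found for most of the 10710 genes that averaged 1 FPKM or more, since Scn4a lay at percentile 27.3 of them.

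Clcn1 encodes ClC-1, the chloride channel that carries most of the resting membrane conductance of skeletal muscle (ENSMUSG00000029862, chromosome 6, 42286685 to 42315756). It was at 72.9, 62.1, 49.6, 46.7 and 54.7 FPKM in libraries 1 to 5. As for Scn4a, library 1 was highest, but library 4 was lowest in place of library 2. The mean was 57.2 ± 10.6 FPKM (SD, n = 5) and the coefficient of variation 18.5%. Exons of Fam131b, on the opposite strand, overlap 8.20% of the annotated Clcn1 exon bases; Fam131b averaged 0.355 FPKM, and no strand setting of the counting was stated in the labels.

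Kcnj2, the inward rectifier Kir2.1 that stabilises the resting potential (ENSMUSG00000041695, chromosome 11, 111066164 to 111076821), was the lowest of the 7 members. Its levels were 14.6, 18.9, 8.50, 8.06 and 7.73 FPKM in libraries 1 to 5. Libraries 1 and 2 were high and the other 3 lay close together. The highest level was 2.44 times the lowest. The mean was 11.6 ± 4.97 FPKM (SD, n = 5), or 9.72 FPKM without library 2. The coefficient of variation of 43.0% was the largest among the members and lay at percentile 92.5 of the tested genes, with a counting error of 2.88%.

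Kcnj11, the Kir6.2 pore of the ATP-sensitive potassium channel (ENSMUSG00000096146, chromosome 7, 46093953 to 46100764), was at 95.5, 87.3, 75.2, 72.7 and 97.1 FPKM in libraries 1 to 5. Libraries 1 and 5 were highest and libraries 3 and 4 lowest. The mean was 85.6 ± 11.2 FPKM (SD, n = 5), with a coefficient of variation of 13.1%. Of the 2 potassium channel members, Kcnj2 thus had the largest relative spread of the list and Kcnj11 the smallest after Scn4a.

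**Figure D1:**
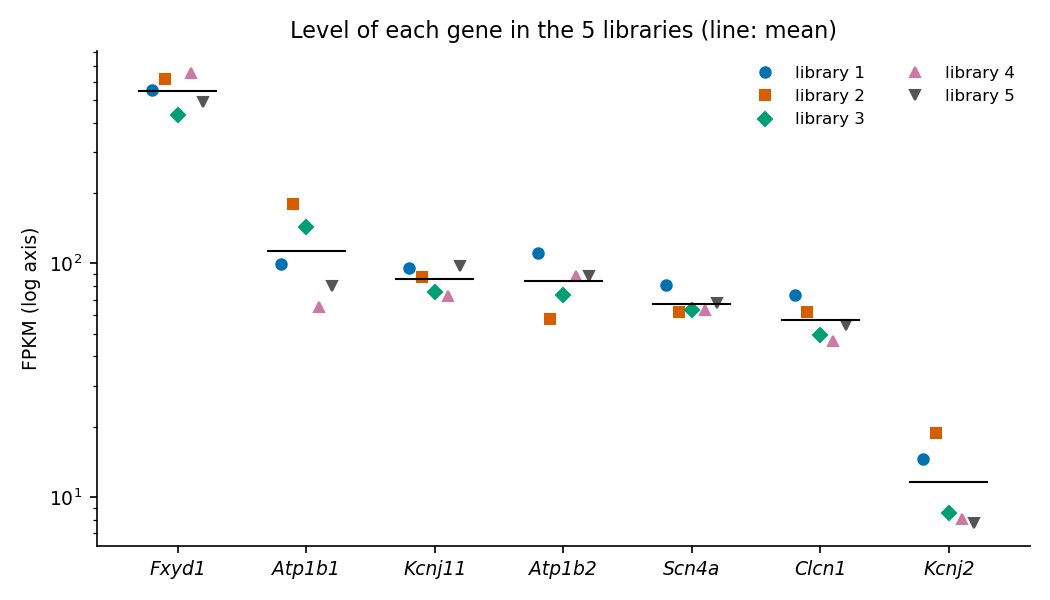
FPKM of the 7 genes (log axis), with 1 point per library and a line at the mean of 5 libraries. Fxyd1 lies above the other genes and Kcnj2 below them in every library, while the means of the other 5 genes lie between 57.2 and 113 FPKM.

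Atp1b1, the beta1 subunit that helps the pump fold and reach the membrane (ENSMUSG00000026576, chromosome 1, 164437109 to 164458355), had the largest fold range of the members. It was at 99.1, 179, 144, 65.0 and 79.9 FPKM in libraries 1 to 5. Libraries 2 and 3 were high and library 4 was lowest, with a ratio of 2.75 between the highest and the lowest. The mean was 113 ± 47.1 FPKM (SD, n = 5), 97.0 FPKM without library 2 and 106 FPKM without library 3. The coefficient of variation was 41.6%, at percentile 91.9 of the tested genes. Exons of Nme7 on the opposite strand overlap 18.7% of the annotated Atp1b1 exon bases, and Nme7 averaged 1.04 FPKM.

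Atp1b2, the beta2 subunit (ENSMUSG00000041329, chromosome 11, 69599736 to 69605942), was at 111, 58.0, 73.3, 88.6 and 87.9 FPKM in libraries 1 to 5. It was lowest in libraries 2 and 3, the same libraries in which Atp1b1 was highest. Its mean was 83.7 ± 19.7 FPKM (SD, n = 5), with a coefficient of variation of 23.5%. The log2 ratio of Atp1b1 to Atp1b2, on the log2(FPKM + 1) scale, was -0.16, 1.61, 0.96, -0.44 and -0.14 in libraries 1 to 5. Atp1b1 was thus the higher form in libraries 2 and 3 and Atp1b2 in libraries 1, 4 and 5. The mean ratio was 0.37 ± 0.88 (SD, n = 5; p = 0.50, exact two-sided sign-flip permutation test), and it was 0.056 without library 2 and 0.22 without library 3. The 2 genes had the least similar pattern of the 21 pairs of members, with a root mean square difference of 0.78 between their log2(FPKM + 1) values after each gene was centred on its own mean.

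The sum of Atp1b1 and Atp1b2 was 210.0, 237, 217, 154 and 168 FPKM in libraries 1 to 5. It varied less than Atp1b1 alone, with a mean of 197 ± 35.0 FPKM and a coefficient of variation of 17.7%. Markers of slow fibres moved with the ratio in library 2. Of 10 slow fibre markers, 9 were highest there, and their summed level was 4557 FPKM in library 2 against 1434 to 2038 FPKM in the other libraries; none of them was at 0. In library 3 the slow fibre sum was the lowest of the 5 at 1434 FPKM, although the ratio there was the second highest. The fast myosin gene Myh4 was lowest in library 2 at 3712 FPKM and next lowest in library 3 at 5756 FPKM, against 8116 to 8657 FPKM in libraries 1, 4 and 5. Another fast myosin gene, Myh1, went the other way, at 1954 FPKM in library 2 and 1471 FPKM in library 3. It was at 628 to 702 FPKM in libraries 1, 4 and 5, and so was higher in both libraries in which Atp1b1 exceeded Atp1b2. Of the 9 fast fibre markers, Myh1 was the only one highest in library 2. The summed level of the 9 was 48603 FPKM in library 2 and 56974 FPKM in library 3, against 67636 to 76203 FPKM in libraries 1, 4 and 5. In bulk tissue fewer cells of a type and less RNA per cell cannot be told apart, and the part of fibre type in the ratio was not tested.

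**Figure D2:**
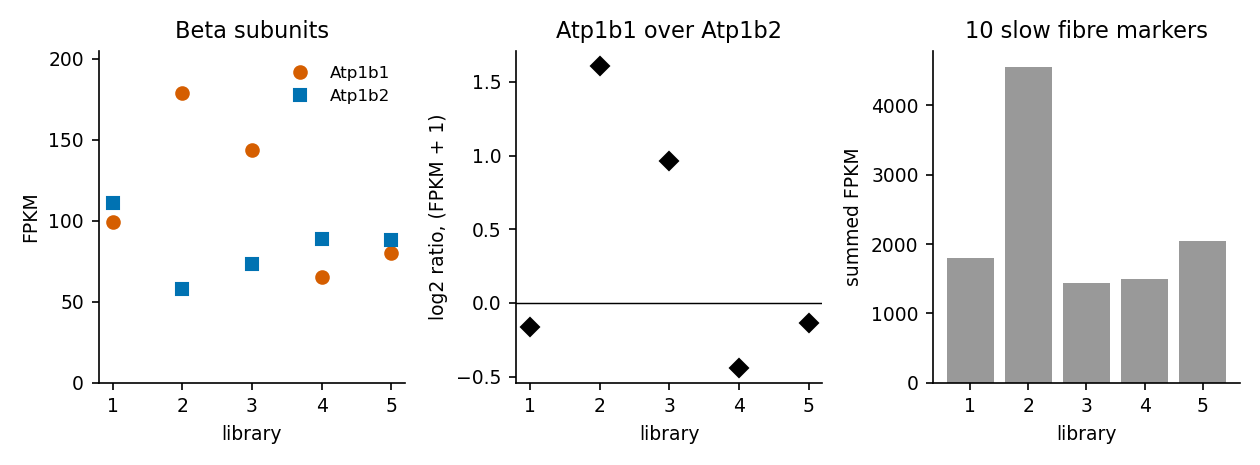
Levels of the pump beta subunits (left, FPKM), log2 ratio of Atp1b1 to Atp1b2 on the log2(FPKM + 1) scale (middle) and summed FPKM of 10 slow fibre markers (right) in the 5 libraries. Atp1b1 exceeds Atp1b2 in libraries 2 and 3, while the slow fibre sum is high in library 2 at 4557 FPKM and lowest in library 3 at 1434 FPKM.

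Library 3 also held the highest levels of most markers of several other cell types, and of denervation and regeneration of muscle. All 10 macrophage markers were highest there, with a sum of 364 FPKM against 93.3 to 124 FPKM elsewhere, as were 10 of 11 denervation and regeneration markers, with a sum of 165 against 34.0 to 50.7 FPKM. Of the 7 fibroblast markers 5 were highest in library 3 (sum 1462 against 817 to 1146 FPKM), and the same held for 5 of 7 markers of nerve sheath (190 against 87.8 to 130 FPKM). Of 7 smooth muscle and pericyte markers 5 were highest there (sum 234 against 145 to 190 FPKM), and of 5 erythroid markers 4 (sum 1028 against 328 to 500.4 FPKM). Of 7 adipocyte markers 6 were highest in library 3, Adipoq among them at 33.6 FPKM against 3.55 to 14.0 FPKM. The adipocyte sum was nevertheless lowest there, at 2396 FPKM against 2414 to 4027 FPKM, since Car3, which muscle fibres also express, made up most of it. None of these markers was at 0 in all libraries. The 7 endothelial markers were highest there for 0 genes, with a sum of 89.1 FPKM against 90.3 to 116 FPKM. No member was highest in library 3, whereas 37.4% of all tested genes were. The part of these cell types, and of denervation or regeneration of the muscle itself, in the members' levels was not tested.

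Fxyd1, or phospholemman, regulates the pump's affinity for sodium according to its phosphorylation (ENSMUSG00000036570, chromosome 7, 31051678 to 31057199). It was the most abundant member, at 549.7, 613, 432, 651 and 489 FPKM in libraries 1 to 5. Library 4 was highest and library 3 lowest. The mean was 547 ± 89.4 FPKM (SD, n = 5), the 79th highest level in the whole table, and 576 FPKM without library 3. The coefficient of variation was 16.4%, close to the median of 16.3% over the tested genes.

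**Figure D3:**
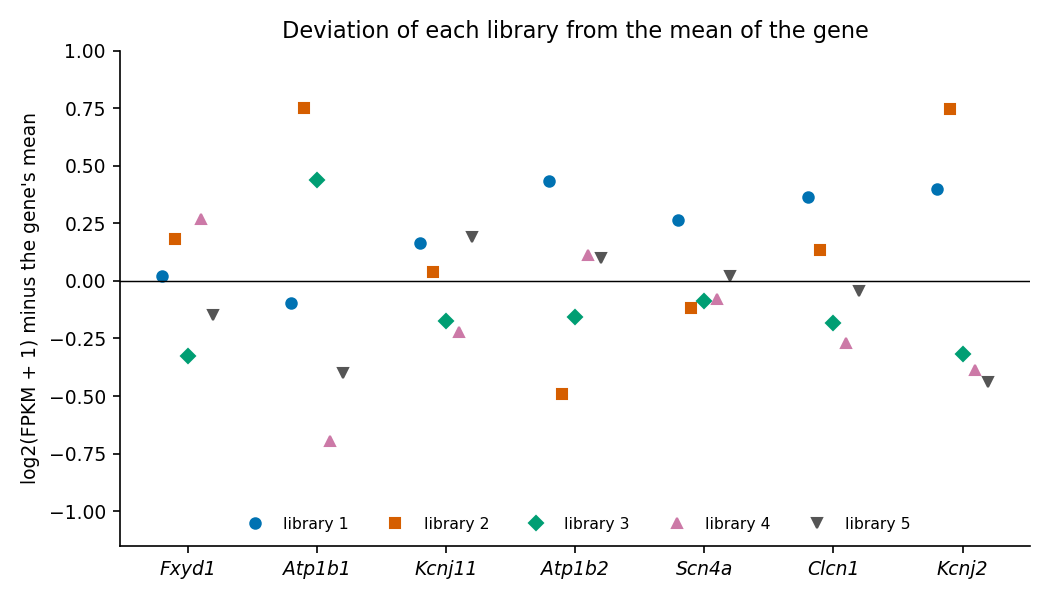
Deviation of each library from the gene's mean on the log2(FPKM + 1) scale for the 7 genes. Library 2 is at 0.75 for both Atp1b1 and Kcnj2 and at -0.49 for Atp1b2, and library 1 is the highest for Atp1b2, Scn4a and Clcn1.

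As a list, the members were highest in library 1 for 3 genes, in library 2 for 2, and in libraries 4 and 5 for 1 each. Over all tested genes the shares highest in libraries 1, 2, 4 and 5 were 21.2%, 23.2%, 10.5% and 7.68%. Library 4 held the lowest level of 3 members, and it was the lowest library for 38.0% of all tested genes. The median coefficient of variation over the members was 18.5%, against 16.3% over all 10710 tested genes. The median of the members' mean levels was 83.7 FPKM.

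Whether a gene varied more than others of its abundance was tested across all 10710 genes with limma, as the ratio of its variance to the abundance trend (one-sided F test, Benjamini-Hochberg adjustment). No member passed the threshold of 0.05, and 0% of all tested genes did. The trend and the F distribution were themselves fitted to the variances of these same genes. The test therefore sets a gene against the others and cannot show whether the genes as a whole varied much. At an unadjusted p under 0.05 there were 616 genes (5.75%), and with voom weights on reads 0 genes passed and 582 had such a p. The ratio was 9.80 for Atp1b1 (adjusted p = 0.78) and 8.53 for Kcnj2 (adjusted p = 0.81), and both were among the 616. Without library 2 the ratios were 6.32 and 3.98, with unadjusted p of 0.052 and 0.11, so that neither member had an unadjusted p under 0.05. For Atp1b1 the unadjusted p was also 0.057 without library 4, and with median-of-ratios scaling its ratio was 4.89 (unadjusted p = 0.082). With all libraries the ratio was 3.39 for Atp1b2 and 1.88 for Clcn1. For Fxyd1, Kcnj11 and Scn4a it was 1.31, 1.02 and 0.70, and the adjusted p of these 5 genes was 0.99. Without library 3, 4 genes passed, none of them a member. The ratios in the same F test were then 14.1 for Atp1b1, 12.5 for Kcnj2 and 5.49 for Atp1b2. Their unadjusted p was 0.0046, 0.0062 and 0.040, and their adjusted p 0.37, 0.41 and 0.89. These 3 members were among 562 genes (5.32%) with an unadjusted p under 0.05 in that setting. Against counting error alone, a chi-square test called all 7 members, but 87.9% of all tested genes passed it as well, and the chi-square statistics of the members ranged from 154 for Kcnj11 to 4053 for Atp1b1.

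The order of the mean levels was Fxyd1, Atp1b1, Kcnj11, Atp1b2, Scn4a, Clcn1 and Kcnj2. Fxyd1 exceeded Atp1b1 in 5 of 5 libraries, by a log2 ratio of 2.34 ± 0.69, and Clcn1 exceeded Kcnj2 in 5 of 5, by 2.28 ± 0.37 (SD over 5 libraries, log2(FPKM + 1) scale). The neighbours between them did not keep 1 order. Atp1b1 exceeded Kcnj11 in 3 libraries (0.31 ± 0.62), Kcnj11 exceeded Atp1b2 in 3 (0.05 ± 0.34), Atp1b2 exceeded Scn4a in 4 (0.29 ± 0.23) and Scn4a exceeded Clcn1 in 4 (0.24 ± 0.18). Of all 21 pairs of members, 15 kept the same order in every library. For those 15 the exact two-sided sign-flip permutation test gave p = 0.0625, the smallest that 5 libraries allow, and 0.0875 after Benjamini-Hochberg adjustment over the 21 pairs, so that none could pass 0.05.

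The order also rests on the length by which each gene was divided. Whole reads were recovered at a length of 620 bases for Fxyd1 and 1173 bases for Kcnj11, against 2186 and 3677 bases of annotated exons. The length of Kcnj11 equals that of its coding sequence, and that of Fxyd1 equals the length of 1 annotated transcript. Divided by the annotated exon length instead, Fxyd1 averaged 155 FPKM and stayed first, whereas Kcnj11 averaged 27.3 FPKM and stood below Atp1b2, Scn4a and Clcn1. Clcn1 averaged 37.4 FPKM by that length. The annotation used for counting was not given, so the reads and the annotated length may cover different bases. If reads over some annotated bases were not counted, the levels by that length are too low. This length was tried after the values were seen.

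**Figure D4:**
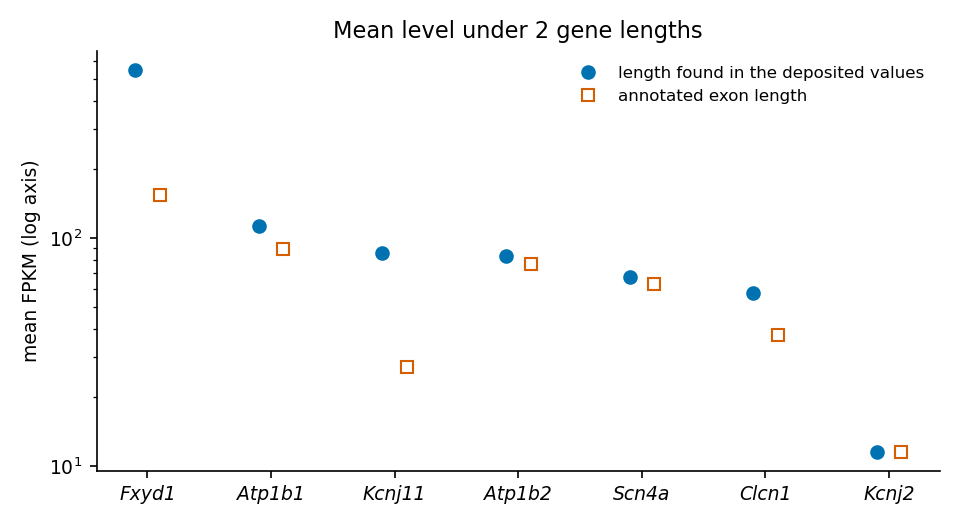
Mean FPKM of each gene over 5 libraries (log axis) with the length found in the deposited values and with the annotated exon length. Kcnj11 is at 85.6 FPKM by the first and 27.3 FPKM by the second, and Kcnj2 is at 11.6 FPKM by both.

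Of the 9 other pump genes described here, 6 averaged 1 FPKM or more and Fxyd4 was listed at 0 in all libraries. Fxyd6 was the next FXYD gene after Fxyd1, at 73.8 ± 19.3 FPKM (SD, n = 5), with its highest level, 105 FPKM, in library 2. Atp1b3 was at 19.9 ± 4.75 FPKM and lay below Atp1b2 in 5 of 5 libraries, by a log2 ratio of Atp1b2 to Atp1b3 of 2.01 ± 0.59. Fxyd5 averaged 3.90 FPKM and Fxyd2 2.93 FPKM. Fxyd7 was at 1.47 FPKM and Atp1b4, which in placental mammals is no longer a pump subunit and resides at the nuclear membrane of muscle, at 1.46 FPKM. Of the 8 genes above 0, library 2 was highest for 4 and library 3 for 4.

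**Figure D5:**
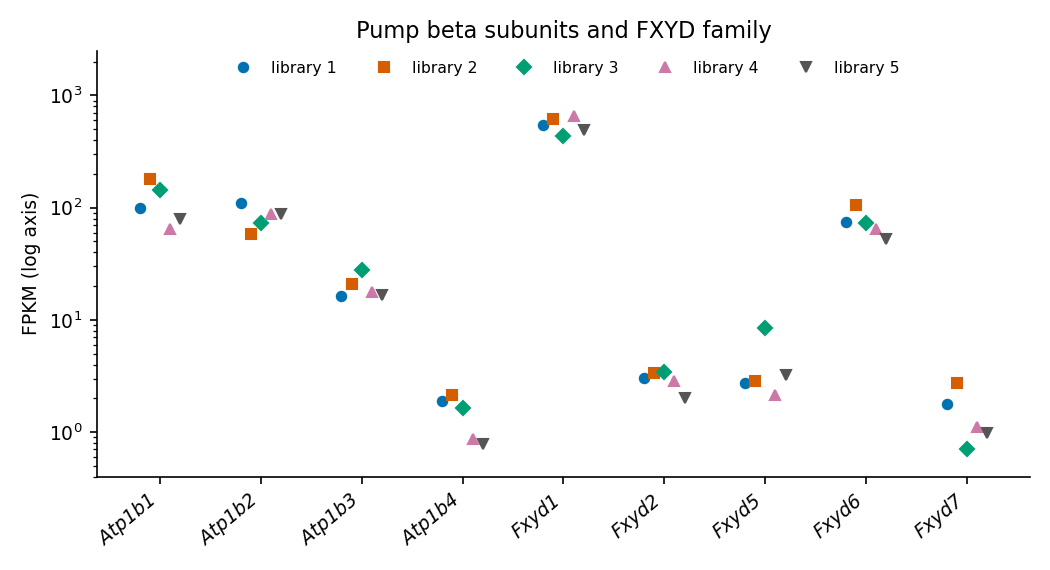
FPKM (log axis) of pump beta subunits and FXYD genes in the 5 libraries. Fxyd1 is the highest gene shown, Fxyd6 ranges from 52.7 to 105 FPKM, and Atp1b1 and Atp1b2 change places between libraries.

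Several other pore genes of voltage-gated sodium channels (Scn1a, Scn2a, Scn3a, Scn8a, Scn9a, Scn10a and Scn11a), which are known mainly from neurons, stayed at or below 0.32 FPKM in every library, against 61.7 FPKM or more for Scn4a. Scn10a was listed at 0. The accessory subunit Scn4b was at 109 ± 14.5 FPKM (SD, n = 5), above the mean of Scn4a. Fgf13, a modulator of sodium channels, was at 12.0 ± 1.02 FPKM. The ankyrin genes Ank3 and Ank2, whose proteins anchor channels to the membrane skeleton, were at 8.60 ± 0.591 and 3.60 ± 0.427 FPKM. Of the 13 genes described from this list, 4 averaged 1 FPKM or more.

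Among potassium channel genes, the pore and regulatory subunits of the ATP-sensitive channel differed in level. Kcnj11 exceeded Abcc9, which encodes the sulphonylurea receptor SUR2, by a log2 ratio of 2.29 to 2.69 over the libraries, and Abcc8, which encodes SUR1, by 5.33 ± 0.16, each in 5 of 5 libraries (SD, n = 5). Abcc9 was at 14.5 ± 3.38 FPKM and Abcc8 at 1.15 ± 0.160 FPKM. The vascular pore gene Kcnj8 was at 8.22 ± 1.99 FPKM, and Kcnj11 exceeded it by 3.25 ± 0.35. With the annotated exon lengths the log2 ratios of Kcnj11 were smaller but kept their sign, at 1.03 to Abcc9, 4.05 to Abcc8 and 1.83 to Kcnj8.

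Kcnj12, the Kir2.2 rectifier that can form channels with Kir2.1, was at 20.4, 18.8, 18.9, 18.1 and 22.4 FPKM in libraries 1 to 5. It varied little, with a coefficient of variation of 8.76% against 43.0% for Kcnj2. Kcnj12 was the higher gene in libraries 1, 3, 4 and 5, and in library 2 they were equal within 0.12 FPKM. The log2 ratio of Kcnj2 to Kcnj12 was -0.80 ± 0.57 (SD, n = 5; p = 0.125, exact two-sided sign-flip permutation test). Of the 24 potassium channel genes, 14 averaged 1 FPKM or more. The highest of them were the voltage-gated Kcna7 at 89.3 ± 9.92 FPKM, close to Kcnj11 at 85.6 ± 11.2 FPKM, and Kcnc4 at 34.2 ± 5.19 FPKM (SD, n = 5).

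No other chloride channel gene of the list reached the level of Clcn1. Clcn2 was at 1.69 ± 0.349 FPKM, and Clcn1 exceeded it by a log2 ratio of 4.42 ± 0.19 in 5 of 5 libraries. The highest of the 11 genes were Ano5, a membrane repair protein of the anoctamin family, at 15.5 ± 3.25 FPKM, the endosomal exchanger gene Clcn4 at 10.7 ± 0.748 FPKM, the cotransporter Slc12a2 at 9.99 ± 1.55 FPKM and the lipid scramblase Ano6 at 9.30 ± 1.17 FPKM. Mbnl1, whose protein controls the splicing of Clcn1, was at 45.3 ± 7.23 FPKM. Mbnl2 was at 36.7 ± 7.40 FPKM, and the opposing splicing factors Celf1 and Celf2 at 9.06 ± 0.856 and 7.46 ± 1.17 FPKM. Library 1, the highest for Clcn1, was also the highest for 4 of 5 splicing regulators, Mbnl1, Mbnl2, Mbnl3 and Celf1. Of these, Mbnl3 averaged 0.013 FPKM, with at most 5 reads in a library, and was not among the tested genes. Mbnl2 was at 42.0 FPKM in library 1 and 41.5 FPKM in library 2. Library 1 was the highest for 21.2% of all tested genes. Which library is highest under median-of-ratios scaling was not computed for the splicing regulators. Gene-level values do not show which splice forms of Clcn1 were present.

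For the 5 of 6 ratios with a partner gene that kept their sign in every library, the exact two-sided sign-flip permutation test gave p = 0.0625, which was 0.075 after Benjamini-Hochberg adjustment over the 6. None could pass 0.05 with 5 libraries.

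The genes whose pattern over the 5 libraries was most like each member were found among 5909 genes that averaged 5 FPKM or more, by the root mean square difference of log2(FPKM + 1) values centred on each gene. For Kcnj11 the 2 nearest were Ttn at 0.026 and Tulp4 at 0.029. For Fxyd1 the 3 nearest were Pink1 at 0.026, Cox7b at 0.033 and Cops9 at 0.036, and for Scn4a they were Zranb2 at 0.033, Trim55 at 0.034 and Srsf6 at 0.041. Clcn1 was nearest to March7 at 0.037, Etl4 at 0.044 and Pnn at 0.049. The distances were larger for the 3 members with the largest SD on the log2(FPKM + 1) scale. These were Atp1b1 at 0.59, Kcnj2 at 0.54 and Atp1b2 at 0.35, and this distance grows with a gene's own spread. Kcnj2 was nearest to Ramp1 at 0.073, followed by Coq8a at 0.16 and Slc26a10 at 0.17. Atp1b2 was nearest to Ces1d at 0.098, Nkain1 at 0.10 and Cbfb at 0.10, and Atp1b1 to Zfp703 at 0.13, Gja1 at 0.14 and Gbe1 at 0.15. Among the members themselves the closest pairs were Scn4a with Kcnj11 at 0.13, Clcn1 with Kcnj11 at 0.15 and Scn4a with Clcn1 at 0.16. These distances describe 5 libraries and share their depth and RNA quality.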

How the data were processed

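RNA sequencing of 5 gastrocnemius samples of 1 group gave 1 table. Per the labels' protocols, poly-A RNA from about 20 mg of tissue was used. Per the submitters' processing notes, the tools were STAR 2.5, TopHat, HTSeq 0.6.1, edgeR and DESeq2 (roles unstated) and the build mm10. Annotation and strand setting: not given in the sources used here. All deposited values are FPKM per gene, as their steps show: each equals a whole number of reads, within 0.001, at some gene length and library total. This held for 20840 of 20840 genes above 0, of which 4544 were whole at the exon length of GENCODE M21 (GRCm38). For the others the shortest length that worked was taken, so reads and lengths of such genes are estimates. Recovered reads summed to 99.4% to 99.5% of the totals. Errors from counting cover counting only.

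Levels, SDs and ratios were computed with Python 3.11.15, numpy 2.4.6 and scipy 1.17.1, with a pseudocount of 1 for log2 values. The 10710 genes that averaged 1 FPKM or more entered the test of spread with limma 3.58.1 in R 4.3.3 (threshold 0.05). The design had allowed for counts; the FPKM test was used. On data simulated for 10710 genes, with 200 genes at a larger SD, 0%, 28%, 80% and 100% of genes were called at 2, 4, 8 and 16 times the SD, with 3 false calls. The simulation gave all other genes the same SD apart from counting error, whereas the SD of real genes differs. These shares therefore do not give the power of the test on the real data, which may be far lower. Symbols were found for 34490 of 35275 identifiers. The members and lists were chosen with earlier results of these data known. Named were all members, pump genes at 1 FPKM or more, pair partners, and the 4 highest genes of each other list; some genes of these lists are not reported here. The genes of the cell type marker lists named, and the lowest sodium channel genes, were chosen after their values were seen.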

Additional observations from a re-analysis of the deposited data

Results flagged for a closer look

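In 59 sets of 5 values (levels and log2 ratios), 5 held a sample whose gap to the nearest other exceeded the Dixon 95% critical value of 0.71 of the range; chance flags about 1 in 20. No member's own level was among them. Fxyd5, a FXYD gene, was at 8.52 FPKM in library 3 against 2.13 to 3.23 FPKM. Macrophage and denervation markers were also highest in that library, and their part was not tested. In library 4, Clcn4 was low at 9.41 FPKM against 10.8 to 11.3 and Mbnl2 at 23.9 FPKM against 37.8 to 42.0. Library 4 was the lowest library for 38.0% of all tested genes. Median-of-ratios scaling raises its values by 0.16 on the log2 scale, and the flags were not recomputed under that scaling. The log2 ratio of Atp1b2 to Kcnj2 was 1.57 in library 2 against 2.84 to 3.35, and that of Kcnj11 to Kcnj8 was 3.85 in library 5 against 2.99 to 3.23.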

How the results depend on the processing

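Of 364 recomputed values, 355 kept their direction and side of the threshold or moved by less than the stated limits. By annotated exon length, an alternative added after the values were seen, the means were 37.4 FPKM for Clcn1, 27.3 for Kcnj11 and 155 for Fxyd1, and 3 log2 ratios turned: Kcnj11 to Atp1b2 (-1.44), to Scn4a (-1.18) and to Clcn1 (-0.43); the lengths themselves make these changes. With 1 library left out, the ratio of Kcnj11 to Atp1b2 ranged from -0.079 (without library 2) to 0.14, and the number of genes called for spread from 0 to 4 (without library 3). With genes at 5 FPKM or more, 5500 of 5926 exceeded counting error, against 9410 of 10710 at 1 FPKM or more. The count was lower since fewer genes were tested, while the share was higher. Median-of-ratios scaling shifted all values of a library by -0.10 to 0.16 on the log2 scale; under it the lowest library of Clcn1, Kcnj2 and Kcnj11 became library 3, and the highest library of no member changed. No paired analysis was possible because there is only 1 group. Among the members depth limits Kcnj2 most, with a counting error of 2.88%.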
